A study of Mus musculus with 3 samples.

Results

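Semaphorins are a family of guidance proteins, secreted or held at the cell surface, and 10 of the 20 mouse semaphorin genes measured in this series are described here. They are the secreted Sema3a, Sema3c, Sema3d and Sema3e, the transmembrane Sema4d, Sema5a, Sema5b, Sema6a and Sema6d, and Sema7a, which is tethered by a lipid anchor. They are 10 of the 30559 genes in the count tables. The set was chosen from measured values of the same libraries, because the Sema3d level lay below control in one ablated library and above it in the other, and its relatives were added for comparison. The differences of Sema3d over all nuclei, within classes and within finer parts draw on those same UMIs. They are therefore a description of how the set was chosen, and support nothing further.

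Semaphorins were first known as cues that turn growing axons away, and they also steer migrating neural progenitors, glial precursors and blood vessels. Secreted semaphorins mostly bind neuropilins, which signal through plexin A receptors, whereas membrane-bound semaphorins mostly bind plexins directly. In the oligodendrocyte lineage several semaphorins act as guidance cues for precursors, and transmembrane members are found on maturing oligodendrocytes.

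The study removed either of the paralogous lysine acetyltransferases CBP and p300, coactivators of transcription, from neural stem cells of the subventricular zone of newborn mice to see how the cells then differentiate. It measured single-nucleus RNA in 3 libraries, 1 of control cultures, 1 of CBPf/f cultures (CBP-ablated) and 1 of p300f/f cultures (p300-ablated), each pooled from about 15 cultures at 15 days in vitro. All 3 samples are labelled with tamoxifen as treatment, while the methods describe a lentivirus that carried Cre with mCherry for ablation or RFP alone for control, nuclei sorted for these proteins, and 16000 nuclei loaded. The mice were on the C57BL/6 background, and the line that gave the control cultures is not stated. With 1 library for each condition there was no replicate, so no test between conditions was made, and all intervals are 95% intervals of counting error alone.

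The control library held 4884 nuclei and 16312170 unique molecular identifiers (UMIs, 1 per captured RNA molecule), the CBP-ablated one 3017 and 12748336, and the p300-ablated one 4648 and 18876682. The UMIs of a gene were summed and are given for each 1000000 UMIs of the library or class (CPM). At these totals, a gene with no UMI could still be present at up to 0.184 CPM in control, 0.235 CPM with CBP ablated and 0.159 CPM with p300 ablated. The floxed genes cannot check the labels, since their counts over exons and introns were not lower. Crebbp had 335 CPM in control, 369.5 with CBP ablated and 365 with p300 ablated, and Ep300 had 114, 136 and 115 CPM. From 1 to 7 nuclear barcodes were shared between each pair of libraries. The nuclei were clustered anew and 10 of 12 clusters were named from marker genes, with the suffix "-like". NPC/OPC-like nuclei carried markers of oligodendrocyte progenitors (Pdgfra and Cspg4). Their name follows a cluster that appeared to the study to mix neuronal and oligodendrocyte progenitors. RGC/PSC-like nuclei carried markers of the RGC/PSC cluster of the study (Shroom3 and Lrp2). Cluster-5-like nuclei carried Kcnj6, Nell2 and Cacng4, by which the study named a cluster immature neurons. The astrocyte-like cluster held 1280 control nuclei and 0 of either ablated library, which allows a share of up to 0.122% and 0.0793% there (upper exact binomial bounds). Its 8 markers summed to 9642 CPM in control, 2161 with CBP ablated and 3937 with p300 ablated, and none of them was at 0. The bounds thus concern nuclei placed in this cluster and not expression of its markers.

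Sema3d and 3 other members lie on 1 stretch of chromosome 5 of GRCm38, all on the plus strand. In the GENCODE M21 annotation Sema3d (ENSMUSG00000040254) spans chr5:12383385-12588948, Sema3a chr5:13125414-13602565, Sema3e chr5:14025276-14256689 and Sema3c chr5:17574281-17730268. The other members lie on other chromosomes. No member overlaps another gene of the tables on its own strand. Sema3e, Sema5a and Sema6d overlap 1, 1 and 2 genes on the opposite strand.

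CBP takes its name from CREB, the factor that binds the cAMP response element TGACGTCA or its short form TGACG. The sequences before the starts of Sema3d and Sema3e are shown because these 2 secreted members of 1 stretch have different class patterns and only the first holds the short form. They are RefSeq sequences of GRCm38.p6, plus strand, 5′ to 3′, with the short form in capitals where either strand holds it (CGTCA is TGACG read on the minus strand).
Sema3d, chr5:12382916-12383165: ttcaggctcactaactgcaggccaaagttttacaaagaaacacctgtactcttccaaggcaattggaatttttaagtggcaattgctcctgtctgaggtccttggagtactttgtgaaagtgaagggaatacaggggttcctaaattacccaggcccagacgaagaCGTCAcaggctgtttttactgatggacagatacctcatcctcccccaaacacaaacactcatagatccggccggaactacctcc
Sema3e, chr5:14025026-14025275: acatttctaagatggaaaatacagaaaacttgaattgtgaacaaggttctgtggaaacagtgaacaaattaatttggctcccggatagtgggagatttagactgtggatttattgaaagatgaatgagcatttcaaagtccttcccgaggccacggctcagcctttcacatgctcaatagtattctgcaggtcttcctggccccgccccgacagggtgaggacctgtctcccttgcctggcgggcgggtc
The capitals in Sema3d mark a match on the minus strand that lies 84 bases before the RefSeq start, which itself lies 219 bases before the GENCODE start. Sema5a and Sema7a hold the short form just after their starts, here given with the bases around it.
Sema5a, chr15:32244831-32244855: aggaaggcggCGTCAgcagcggctg
Sema7a, chr9:57940142-57940161: ggctgcgggaTGACGcctcc
Over windows of 300 bases (250 before and 50 after the start), 3 of 12 windows of 9 members held TGACG on either strand, against 20.8% of all 32851 windows. The full element TGACGTCA was in 0 of the 12 and in 1.79% of all windows. The windows of the other 6 members with an entry do not hold these letters. A match of letters is a description and says nothing of binding.

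Long genes collect more intronic UMIs, so levels of different genes were compared only per kilobase of gene span. On that scale the control order was Sema6d at 3.09 (3.06 to 3.13) CPM per kb, Sema6a at 2.23 (2.17 to 2.30), Sema3d at 2.17 (2.12 to 2.22), Sema5b at 2.10 (2.04 to 2.17), Sema4d at 0.849 (0.806 to 0.893) and Sema5a at 0.727 (0.707 to 0.746). Sema7a followed at 0.269 (0.219 to 0.328), Sema3e at 0.151 (0.139 to 0.164), Sema3c at 0.0802 (0.0695 to 0.092) and Sema3a at 0.0344 (0.0304 to 0.0388) CPM per kb. In this order the intervals of Sema6a and Sema3d overlapped, as did those of Sema3d and Sema5b, and no other neighbours overlapped. Sema6d, a ligand of plexin A1, was thus the most abundant member and Sema3a the least, per kilobase of span.

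**Figure D1:**
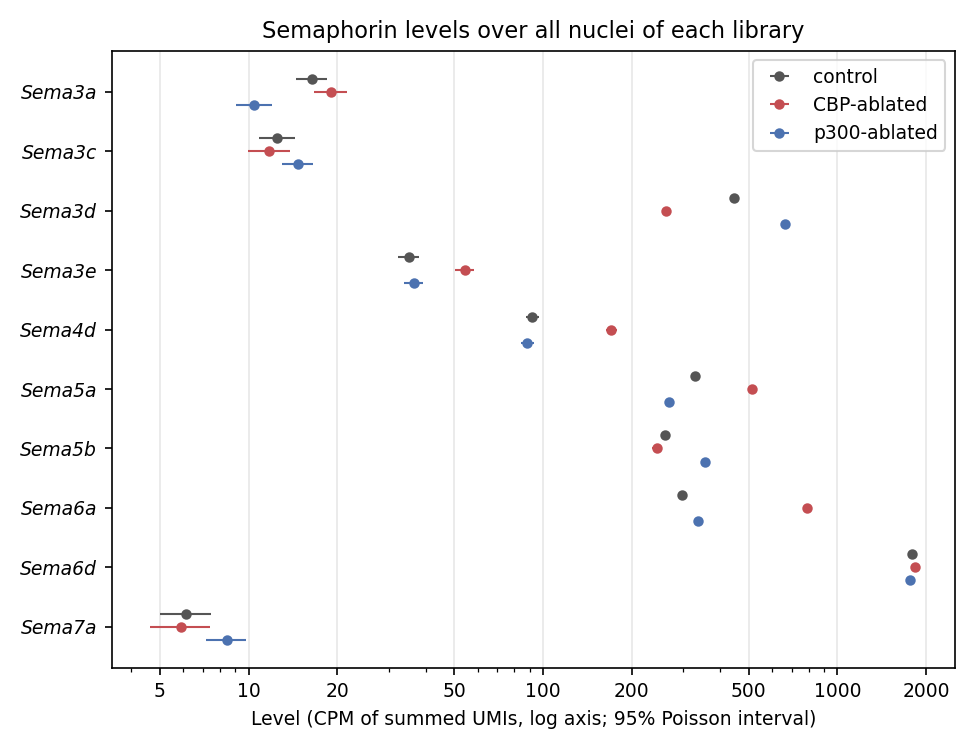
Level of each of the 10 semaphorins (CPM of UMIs summed over all nuclei, log axis) in the control, CBP-ablated and p300-ablated library, with 95% Poisson intervals as bars. Sema3d sits at 446 CPM in control, 262 with CBP ablated and 663 with p300 ablated, whereas the 3 points of Sema6d lie between 1762 and 1832.

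Ratios of CPM to control are given on the log2 scale. In the CBP-ablated library 4 of the 10 members were more than 1.5-fold higher than control (Sema6a, Sema4d, Sema5a and Sema3e) and 1 more than 1.5-fold lower (Sema3d). A minimum of 100 UMIs summed over both libraries left 11883 genes, of which 7.90% were that much higher and 9.97% that much lower, and all 10 members passed it. In the p300-ablated library 0 members were more than 1.5-fold higher and 1 was lower (Sema3a), against 4.37% and 7.77% of 12247 genes. The median log2 ratio of the members was 0.13 and 0.12, that of all genes 0.06 and −0.03. The 2 ablated libraries share the control library.

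Among the secreted members, Sema3d, which patterns axons and migrating neural crest and endothelial cells, had 446 (435 to 456) CPM in control, 262 (253 to 271) with CBP ablated and 663 (651 to 674) with p300 ablated. Its log2 ratio to control was −0.77 (−0.83 to −0.71) in the CBP-ablated library and 0.57 (0.53 to 0.61) in the p300-ablated library, just inside 1.5-fold. Sema3e, the direct ligand of plexin D1, had 35.0, 54.3 and 36.4 CPM and log2 ratios of 0.63 (0.47 to 0.80) and 0.06 (−0.11 to 0.22). Its level was thus higher than control in the CBP-ablated library alone. Sema3a, the prototype repellent of axons, had 16.4, 19.1 and 10.4 CPM, with ratios of 0.21 (−0.04 to 0.47) and −0.65 (−0.93 to −0.38). Sema3c, a guidance cue of neural crest cells and cortical axons, had 12.5, 11.8 and 14.7 CPM, and both of its ratios, −0.09 (−0.40 to 0.22) and 0.23 (−0.04 to 0.50), had intervals that include 0. No secreted relative shared the pattern of Sema3d, with 1 interval below 0 and the other above.

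The membrane-bound members lie apart in the genome, Sema4d at chr13:51685529-51793747 on the minus strand and Sema5a at chr15:32244810-32696341, Sema5b at chr16:35541145-35664732, Sema6d at chr2:124089969-124667770 and Sema7a at chr9:57940112-57962865 on the plus strand. Sema6a, a ligand of plexins A2 and A4, showed the log2 ratio farthest from 0 among the 10. It had 298 (289 to 306) CPM in control, 789 (774 to 805) with CBP ablated and 336 (328 to 345) with p300 ablated, with log2 ratios of 1.41 (1.36 to 1.46) and 0.18 (0.12 to 0.23). Sema4d, the ligand of plexin B1, had 91.8, 171 and 88.5 CPM, with ratios of 0.89 (0.80 to 0.99) and −0.05 (−0.15 to 0.05). Both were thus higher in the CBP-ablated library, and Sema4d in the p300-ablated library had an interval that includes 0. Sema5a, a transmembrane semaphorin with thrombospondin repeats, had 328, 514 and 268 CPM, with ratios of 0.65 (0.59 to 0.70) and −0.29 (−0.35 to −0.24). Its paralog Sema5b had 259.7, 243 and 356 CPM, with ratios of −0.09 (−0.16 to −0.03) and 0.46 (0.40 to 0.51). The sums over all nuclei of these paralogs lay on opposite sides of control in both ablated libraries. The CBP-ablated sides did not hold for either under other settings. Sema5b gave 0.15 as the mean of nuclei and 0.17 after thinning, and at 1 common makeup, described next, Sema5b gave −0.02 (−0.09 to 0.05) and Sema5a −0.19 (−0.25 to −0.14). Sema6d had ratios of 0.04 (0.01 to 0.06) and −0.02 (−0.04 to 0.00), and Sema7a, which binds integrin beta 1 and plexin C1, of −0.06 (−0.51 to 0.39) and 0.46 (0.09 to 0.83). Genes with both intervals off 0, below control in the CBP-ablated and above it in the p300-ablated library, made up 4.11% of 11808 genes. Apart from Sema3d, which was chosen for this pattern, 1 of the other 9 members (Sema5b) was among them. The reverse held for 3.42% of genes and for 1 member (Sema5a).

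These differences over all nuclei were next set beside the makeup of the libraries, since a gene of 1 cell type also varies with the share of that type. In bulk sums over a library, fewer nuclei of a type and less RNA per nucleus cannot be told apart. NPC/OPC-like nuclei made up 22.1% of the control, 13.8% of the CBP-ablated and 37.8% of the p300-ablated nuclei. Oligodendrocyte-like nuclei made up 3.28%, 16.2% and 4.15%, and committed oligodendrocyte precursor-like nuclei 8.07%, 20.2% and 5.12%. The 6 oligodendrocyte markers summed to 418 CPM in control, 1756 with CBP ablated and 463 with p300 ablated, and none of them was at 0. The class levels of the control library were first weighted by the class shares of UMIs in each ablated library, which keeps levels fixed and changes makeup alone. Makeup here means shares of UMIs, which also carry the RNA per nucleus of a class. For oligodendrocyte-like nuclei of the CBP-ablated library that share was 23.2%, beside 16.2% of nuclei. Then each library was standardised to 1 common makeup over the 11 clusters with at least 20 nuclei in every library, which leaves out the astrocyte-like cluster.

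For Sema3d the makeup alone gave a log2 ratio of 0.01 for the CBP-ablated library, far from the −0.77 observed, and the standardised ratio was −0.68 (−0.74 to −0.61). For the p300-ablated library the makeup alone gave 0.41, beside 0.57 observed, and the standardised ratio was 0.17 (0.13 to 0.21). The standardised values leave out the control-only astrocyte-like nuclei, and over the same kind of nuclei, outside that cluster but with each library's own makeup, the ratios were −1.14 and 0.20. The common makeup thus brought the CBP-ablated ratio nearer to 0, from −1.14 to −0.68, while the p300-ablated ratio went from 0.20 to 0.17. For Sema4d the makeup alone gave 0.97 in the CBP-ablated library, and the standardised ratio was −0.05 (−0.15 to 0.06). For Sema5a these values were 0.83 and −0.19 (−0.25 to −0.14), and for Sema3e 0.70 and −0.20 (−0.37 to −0.03). In these 3 genes the ratio in the CBP-ablated library was no longer above 0 at 1 makeup, whereas outside the astrocyte-like cluster alone it was 0.62 for Sema4d, 0.27 for Sema5a and 0.28 for Sema3e. Sema6a kept a standardised ratio above 0, at 0.47 (0.42 to 0.53), with 0.87 from makeup alone. Sema6d showed the opposite order, with −0.27 from makeup alone, 0.04 observed and 0.40 (0.37 to 0.43) at 1 makeup. Sema3a in the p300-ablated library stayed below control at 1 makeup, at −0.63 (−0.92 to −0.33), with 0.05 from makeup alone.

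**Figure D2:**
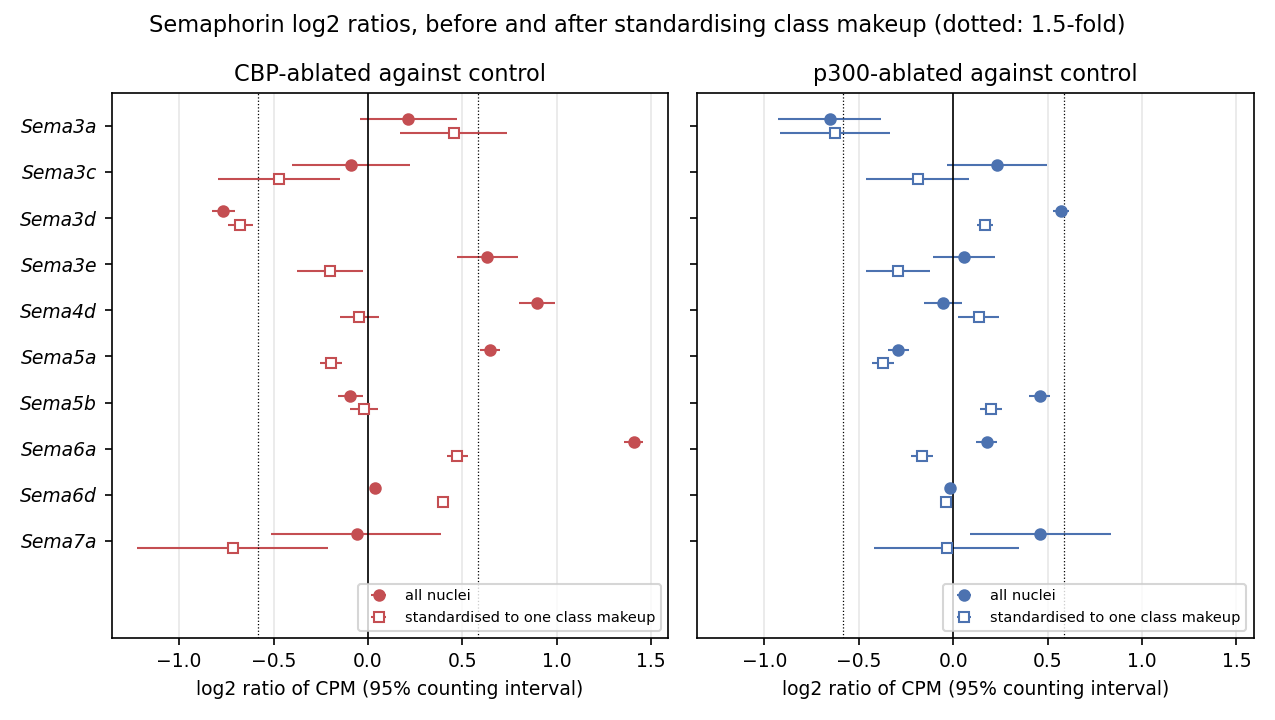
Log2 ratio of CPM to control for each semaphorin in the CBP-ablated (left) and p300-ablated library (right), over all nuclei (filled circles) and standardised to one class makeup without the astrocyte-like class (open squares), with 95% counting intervals and dotted lines at 1.5-fold. In the CBP-ablated library the Sema3d circle and square lie at −0.77 and −0.68, both below 0, while those of Sema4d lie at 0.89 and −0.05.

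Sema3d was concentrated in 4 classes of nuclei. NPC/OPC-like, committed precursor-like, cluster-5-like and proliferating-like nuclei together held 90.9% of its UMIs in control, 85.8% with CBP ablated and 92.2% with p300 ablated. They held only 43.3%, 44.5% and 58.3% of all UMIs. Sema5b was concentrated in the same classes, with 84.4%, 87.7% and 89.9% of its UMIs. In control the highest level was in NPC/OPC-like nuclei, at 1059.5 (1026 to 1094) CPM, followed by committed precursor-like nuclei at 903 (858 to 950.2), proliferating-like at 801 (728 to 880.1) and cluster-5-like at 693 (648 to 740.0). In that order NPC/OPC-like nuclei stood apart, while the proliferating-like interval overlapped those of committed precursor-like and of cluster-5-like nuclei. In oligodendrocyte-like nuclei the control level was 88.9 (69.9 to 111) CPM, so that Sema3d was lower in the most mature cells of the lineage than in their precursors.

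In the CBP-ablated library Sema3d was lower than control in all 4 of these classes. In NPC/OPC-like nuclei it had 749 (706 to 795) CPM, a log2 ratio of −0.50 (−0.60 to −0.40), and in proliferating-like nuclei 532 (470.1 to 599) CPM, a ratio of −0.59 (−0.82 to −0.37). Committed precursor-like nuclei had 452 (427 to 477) CPM, a ratio of −1.0 (−1.11 to −0.89). In cluster-5-like nuclei it had 248 (216 to 284) CPM, a ratio of −1.48 (−1.70 to −1.26). All 4 ratios were below 0, but these classes hold most of the UMIs by which Sema3d was chosen. These classes were found with 13 semaphorin, receptor and partner genes among the clustering genes, Sema3d included. Among NPC/OPC-like nuclei found without those genes the ratio was −0.79, and it ran from −0.86 to −0.35 over the other clusterings. The class did not hold the same nuclei in each clustering, with 3257 nuclei here and 4397 at a resolution of 0.3. In cluster-5-like nuclei it was −0.84 without those genes and −0.95 at a resolution of 1.2, so that the order of the classes was not kept. In the clustering used here the intervals of the ratios in these classes did not overlap except those of NPC/OPC-like and proliferating-like nuclei.

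In the p300-ablated library the NPC/OPC-like level was 1089 (1064 to 1114) CPM, a ratio of 0.04 (−0.02 to 0.10), and the committed precursor-like level 945 (890.4 to 1003) CPM, a ratio of 0.07 (−0.05 to 0.18). Neither interval excluded 0. In cluster-5-like nuclei the level was 1017 (974 to 1061) CPM, a ratio of 0.55 (0.44 to 0.67), and in proliferating-like nuclei 955 (894 to 1019.5) CPM, a ratio of 0.25 (0.09 to 0.42). The intervals of the last 2 classes lay above 0. Of all 9 named classes compared, 7 had an interval above 0. Among them were classes of low Sema3d level, with ratios of 0.53 (0.12 to 0.96) in RGC/PSC-like and 0.84 (0.40 to 1.30) in glial progenitor-like nuclei. Oligodendrocyte-like nuclei had 0.65 (0.25 to 1.07), neuron-like 1.09 (0.18 to 2.07) and microglia-like 1.81 (1.08 to 2.56). Several of these classes are read as background below. The NPC/OPC-like and cluster-5-like ratios varied with the clustering. In cluster-5-like nuclei the ratio was 0.20 without the family genes, 0.13 with variable genes ranked by vst, a variance-stabilising transform, and 0.89 as a mean of log values, and in NPC/OPC-like nuclei it was 0.14 without the family genes and 0.15 at a resolution of 0.3. The difference between these 2 classes was thus smaller when the family genes, Sema3d among them, did not enter the clustering. The cluster-5-like class then held 741 nuclei rather than 1139, and what made the difference smaller was not tested.

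**Figure D3:**
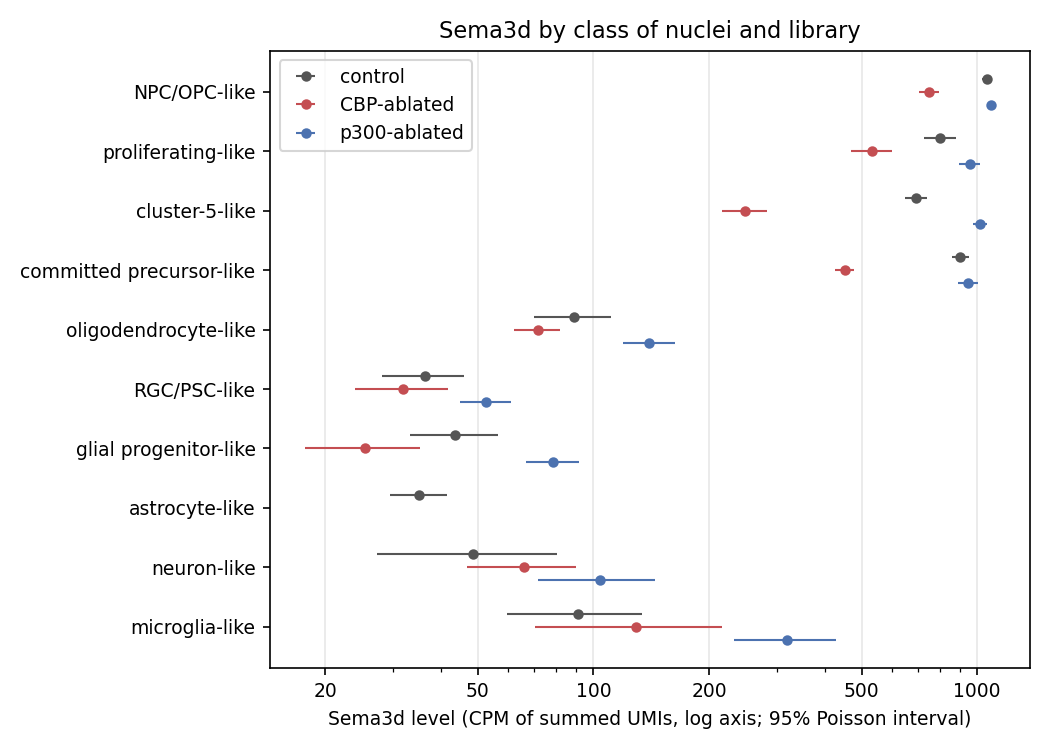
Sema3d level (CPM of summed UMIs, log axis) in 10 classes of nuclei in the control, CBP-ablated and p300-ablated library, with 95% Poisson intervals as bars; the astrocyte-like class has control nuclei alone. The CBP-ablated points lie to the left of control in the upper 4 classes, from 248 to 749 CPM against 693 to 1059.5, while the p300-ablated points of NPC/OPC-like and committed precursor-like nuclei lie within the reach of the control intervals.

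In droplet data free RNA adds UMIs to nuclei that do not make a transcript. Microglia-like nuclei, which should lack Sema3d, were taken as a reference for that background. They had 91.2 (59.6 to 134) CPM of Sema3d in control, 129 (70.4 to 216) with CBP ablated and 319 (233 to 427) with p300 ablated, from 26, 14 and 45 UMIs. Microglia-like nuclei were shallow, so free RNA weighs more in their CPM, and UMIs per nucleus were compared too. They held 0.142 (0.0928 to 0.208) Sema3d UMIs per nucleus in control, 0.184 (0.101 to 0.309) with CBP ablated and 0.849 (0.619 to 1.14) with p300 ablated. RGC/PSC-like, glial progenitor-like and astrocyte-like nuclei lay below them in CPM and per nucleus in each library that held them, and were read as background. With p300 ablated, RGC/PSC-like nuclei held 0.207 (0.177 to 0.24) and glial progenitor-like nuclei 0.268 (0.228 to 0.314) per nucleus. Both intervals were clear of the microglia-like one, which rests on 53 nuclei, so the microglia-like value did not give a common background there. Neuron-like nuclei lay below them in CPM, with overlapping intervals per nucleus in control and with CBP ablated. Oligodendrocyte-like nuclei had 0.469 (0.369 to 0.588), 0.434 (0.378 to 0.497) and 0.86 (0.734 to 1.00) Sema3d UMIs per nucleus. This was above microglia-like nuclei in the first 2 libraries, but their CPM lay below. RGC/PSC-like nuclei held 0.125, 0.132 and 0.207 per nucleus and glial progenitor-like nuclei 0.131, 0.0897 and 0.268, and both were also lower in CPM. The oligodendrocyte-like level thus lay above these classes read as background, but was not told apart from microglia-like nuclei.

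Shares of nuclei with a Sema3d UMI were compared at equal depth. After each nucleus was thinned to 1500 UMIs, 68.5% (65.6 to 71.3) of NPC/OPC-like nuclei in control had one, 54.2% (49.3 to 59.1) with CBP ablated and 71.7% (69.5 to 73.8) with p300 ablated. Without thinning these shares were 85.8%, 78.4% and 90.3%, at median depths of 3239, 3471 and 3800 UMIs. Among committed precursor-like nuclei the thinned shares were 63.9% (59.0 to 68.7), 41.2% (37.2 to 45.2) and 65.5% (59.1 to 71.6). In cluster-5-like nuclei they were 48.2% (43.0 to 53.5), 27.5% (22.2 to 33.4) and 66.7% (62.4 to 70.8). In proliferating-like nuclei they were 66.9% (58.1 to 74.9), 50.8% (41.6 to 59.98) and 64.9% (57.6 to 71.7). The CBP-ablated share was the lowest in all 4 classes, with an interval that overlapped that of control in the last. The p300-ablated share was above control in the first 3, with an interval clear of control in cluster-5-like nuclei alone, and below it in proliferating-like nuclei, where the CPM order was the reverse, so no order of these 2 libraries was read there. The share in microglia-like nuclei, the reference for background, was 10.9% (4.51 to 21.2), 17.4% (4.95 to 38.8) and 20% (7.71 to 38.6). It was 9.84%, 13.2% and 24.5% without thinning, at median depths of 1134, 1022.5 and 1664 UMIs. Thinning left out 248 nuclei of control, 95 with CBP ablated and 135 with p300 ablated, which held fewer UMIs. Of these, 119, 53 and 23 were microglia-like, so the thinned microglia-like shares rest on only 64, 23 and 30 nuclei.

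Finer clustering, at a resolution of 1.2, split these classes and showed that they were not made of the same nuclei in each library. NPC/OPC-like nuclei fell into 3 parts, led by Gpr149, Tmem255b and Gm2164. The Gpr149-led part held 37.7% of the class in control, 76.5% with CBP ablated and 17.5% with p300 ablated. In that part Sema3d had 954 (900.3 to 1010.3) CPM in control, 742 (692 to 794) with CBP ablated and 1025 (963 to 1089) with p300 ablated. In the Tmem255b-led part it had 1209 (1153 to 1268), 901 (770.2 to 1047) and 1226 (1188 to 1264) CPM, and in the Gm2164-led part 977 (912 to 1045), 634 (515 to 773) and 923 (884 to 962). Sema3d was thus lower in the CBP-ablated library in all 3 parts, with intervals clear of control. The p300-ablated interval overlapped that of control in all 3.

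Cluster-5-like nuclei split more sharply. Of the CBP-ablated nuclei of this class 82.7% joined the Gpr149-led cluster, whereas 92.9% of the control and 97.3% of the p300-ablated nuclei stayed in a Kcnj6-led cluster. In the Kcnj6-led nuclei alone Sema3d had 708 (661 to 757) CPM in control, 387 (295 to 499.8) in 42 CBP-ablated nuclei and 1016 (972 to 1061) in the p300-ablated library. The direction was the same there as in the whole class, and the CBP-ablated level was nearer to control than in the whole class. Of committed precursor-like nuclei, the part led by Arhgap24 and Bmp4 had 1208 (1139 to 1279), 772 (722 to 824) and 1255 (1171 to 1343) CPM. The part led by Gm32531, which carries Enpp6, had 496 (446 to 550.4), 229.9 (208 to 254) and 546 (484 to 614) CPM. Sema3d was lower in the Enpp6 part in all 3 libraries, and lower in the CBP-ablated library in both parts.

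The genes whose levels followed Sema3d most closely over the 32 sums of a class in a library (at least 50 nuclei each) were Lhfpl3, Tnr, Dscam, Lrrtm3 and Gm42948, with Pearson r from 0.926 to 0.955 on log2(CPM + 10) among 8672 genes. This is a description, since sums of 1 library share its depth and free RNA. Lhfpl3, itself a marker of NPC/OPC-like nuclei, had 5908 CPM in control, 5244 with CBP ablated and 9071 with p300 ablated. Lrrtm3, a synaptic adhesion protein, had 352, 227 and 456 CPM, and Gm42948 30.8, 20.2 and 42.3. Tnr, a matrix glycoprotein of oligodendrocyte precursors, had 3705, 4142 and 4980 CPM, and Dscam, a homophilic adhesion receptor, 2194, 1604 and 3286. Of the other members Sema5b was most like Sema3d, with r of 0.862.

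Sema5b was highest in control in committed precursor-like nuclei, at 671 (632 to 711) CPM, with 448 (424 to 474) with CBP ablated and 816 (765 to 869) with p300 ablated. The log2 ratios were −0.58 (−0.70 to −0.46) and 0.28 (0.16 to 0.41), on the same sides of control as those of Sema3d over all nuclei. In NPC/OPC-like nuclei it had 489.9, 522 and 556 CPM, and its ratio in the CBP-ablated library, 0.09 (−0.03 to 0.21), had an interval that includes 0. In cluster-5-like nuclei it was higher in the CBP-ablated library, at 533 against 361 CPM, a ratio of 0.56 (0.37 to 0.75). In the Kcnj6-led nuclei alone it had 354 (321 to 389) CPM in control and 506 (399 to 632) with CBP ablated. Sema5b and Sema3d therefore lay on opposite sides of control in these nuclei too.

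Sema6a was highest in oligodendrocyte-like nuclei. There it had 1397 (1318 to 1479) CPM in control, 1928 (1878 to 1978) with CBP ablated and 949 (894 to 1006) with p300 ablated, with log2 ratios of 0.46 (0.37 to 0.56) and −0.56 (−0.68 to −0.44). The 2 ablated libraries lay on opposite sides of control in this class. In committed precursor-like nuclei Sema6a had 343 (316 to 372), 817 (784 to 851) and 395 (359.8 to 433) CPM, and the ratio of 1.25 (1.12 to 1.39) in the CBP-ablated library was the largest of any named class with at least 100 UMIs. As a mean of log values over nuclei it was 0.74. In the Arhgap24-led part of that class it had 163 (139 to 191), 262 (233 to 293) and 194 (162 to 231) CPM, and in the Enpp6 part 584 (529 to 643), 1202 (1149.8 to 1256) and 654 (586 to 728). The Enpp6 part held 38.8% of these nuclei in control and 54.2% with CBP ablated, and Sema6a was higher in the CBP-ablated library in each part. Its NPC/OPC-like levels were 363, 475 and 406 CPM, with ratios of 0.39 (0.25 to 0.52) and 0.16 (0.07 to 0.26). In RGC/PSC-like and glial progenitor-like nuclei of the CBP-ablated library the ratios were −0.15 (−0.39 to 0.08) and −0.14 (−0.44 to 0.15), with intervals that include 0. Microglia-like nuclei, as background, had 38.6, 129 and 42.6 CPM.

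Sema6d, like Sema6a, was found in nearly every class. In control its class levels ran from 211 CPM in microglia-like to 2341 in NPC/OPC-like nuclei, with 2129.7 in glial progenitor-like and 1966 in astrocyte-like nuclei. In NPC/OPC-like nuclei it had 3149 (3059 to 3241) CPM with CBP ablated and 2126 (2091 to 2161) with p300 ablated, with ratios of 0.43 (0.38 to 0.48) and −0.14 (−0.18 to −0.10). In cluster-5-like nuclei it had 1323 (1261 to 1388), 3288 (3168 to 3411) and 1429 (1378 to 1482) CPM, and the CBP-ablated ratio was 1.31 (1.23 to 1.40). That difference was not seen within the Kcnj6-led nuclei of the class, which had 1265 (1202 to 1329.9), 1353 (1174 to 1551) and 1399.7 (1349 to 1452) CPM, while the Gpr149-led CBP-ablated nuclei had 3702 (3562 to 3847). The ratio of the class was 0.21 without the family genes in clustering, 0.24 at a resolution of 1.2 and 0.42 by vst, inside 1.5-fold in each. In oligodendrocyte-like nuclei Sema6d had 928, 819.9 and 1252 CPM, with ratios of −0.18 (−0.29 to −0.06) and 0.43 (0.31 to 0.56), the reverse of the signs of Sema6a.

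**Figure D4:**
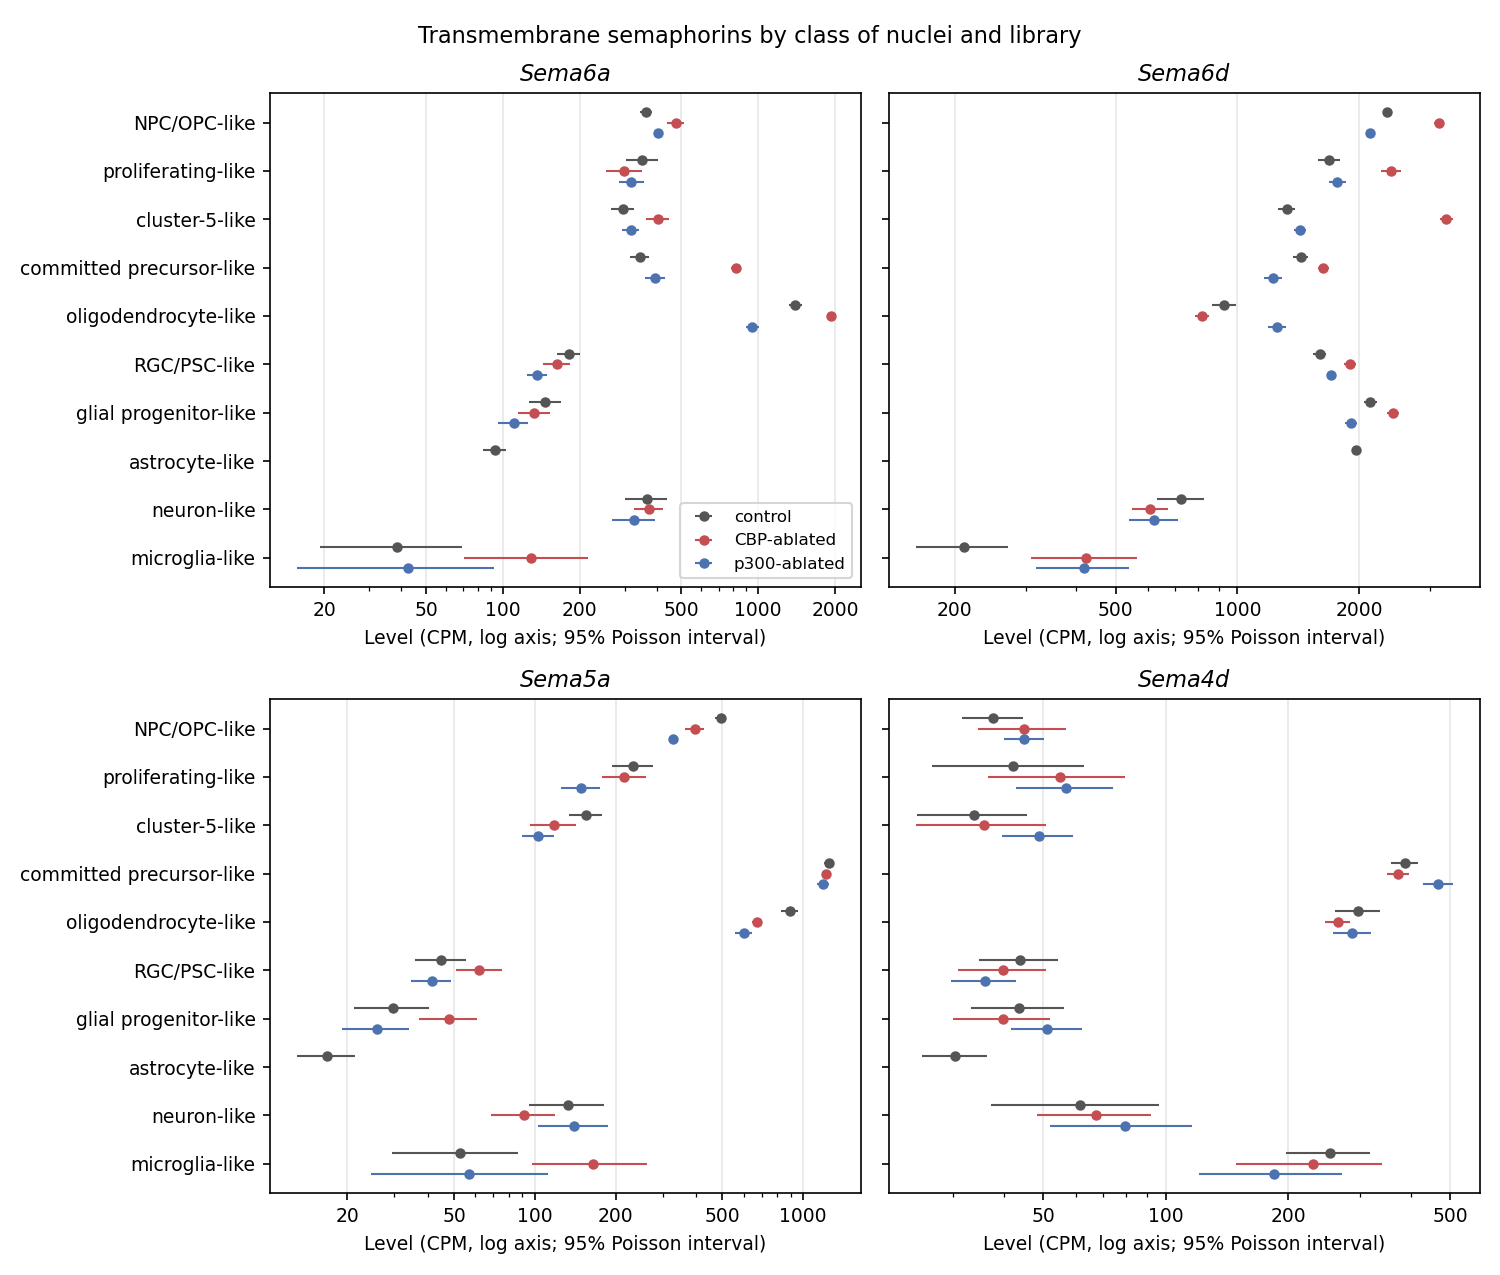
Levels of Sema6a, Sema6d, Sema5a and Sema4d (CPM of summed UMIs, log axes that differ between panels) in 10 classes of nuclei in the 3 libraries, with 95% Poisson intervals. The Sema6a points of oligodendrocyte-like nuclei stand at 1397, 1928 and 949 CPM in control, CBP-ablated and p300-ablated, while the 3 Sema5a points of committed precursor-like nuclei fall close together from 1184 to 1246.

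Sema5a and Sema4d were highest in committed precursor-like nuclei, followed by oligodendrocyte-like nuclei. Of the Sema4d UMIs these 2 classes held 59.7% in control and 84.3% with CBP ablated, and 53.0% and 82.8% of the Sema5a UMIs, while their share of nuclei went from 11.3% to 36.4%. In committed precursor-like nuclei Sema4d had 386 (357 to 417), 372 (349.8 to 395) and 467 (428 to 507) CPM, with ratios of −0.05 (−0.20 to 0.09) and 0.27 (0.11 to 0.44). In none of the 9 named classes compared did the interval of the CBP-ablated Sema4d ratio exclude 0. Sema5a in committed precursor-like nuclei had 1246 (1193 to 1301), 1213 (1173 to 1255) and 1184 (1123 to 1248) CPM, and both ratios, −0.04 (−0.12 to 0.04) and −0.07 (−0.17 to 0.02), had intervals that include 0. In oligodendrocyte-like nuclei Sema5a had 892 (829 to 958), 672 (643 to 702) and 600.0 (557 to 646) CPM, lower than control in both ablated libraries, with ratios of −0.41 (−0.53 to −0.29) and −0.57 (−0.72 to −0.42). It was also lower in NPC/OPC-like nuclei, with 493, 395 and 329 CPM and ratios of −0.32 (−0.46 to −0.18), which was 0.019 by vst, and −0.58 (−0.68 to −0.49). In RGC/PSC-like, glial progenitor-like and microglia-like nuclei the CBP-ablated ratio was above 0. The CPM of the first 2 classes lay below those of microglia-like nuclei, at 52.6, 165 and 56.8 CPM, but RGC/PSC-like nuclei held 0.154 (0.123 to 0.19) Sema5a UMIs per nucleus in control against 0.082 (0.0459 to 0.135) in microglia-like ones, so these low levels were not told apart from background. In none of the NPC/OPC-like, committed precursor-like and oligodendrocyte-like nuclei, where Sema5a was highest, was the CBP-ablated level above control in the clustering used here.

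The 4 low members were each highest in a different named class in control. Sema3e was highest in RGC/PSC-like nuclei in control, with 109 (94.5 to 125) CPM, 54.9 (44.2 to 67.4) with CBP ablated and 82.0 (72.5 to 92.3) with p300 ablated. There it was lower than control in both, with ratios of −0.99 (−1.36 to −0.63) and −0.41 (−0.68 to −0.14). Its level in committed precursor-like nuclei was higher in the CBP-ablated library, at 80.3 (70.2 to 91.5) against 36.5 (27.9 to 46.9) CPM, a ratio of 1.14 (0.72 to 1.57). As a mean of log values over nuclei this ratio was 0.20, inside 1.5-fold. Sema3a was highest in glial progenitor-like nuclei, with 37.8 (28.1 to 49.6), 61.7 (49.3 to 76.2) and 21.2 (15.3 to 28.7) CPM, and its ratios of 0.71 (0.19 to 1.24) and −0.83 (−1.45 to −0.21) lay on opposite sides of 0. In NPC/OPC-like and RGC/PSC-like nuclei its p300-ablated ratios were −0.96 (−1.56 to −0.36) and −1.0 (−1.67 to −0.34), so Sema3a was lower in the p300-ablated library in 3 of the 6 named classes with at least 20 UMIs over both libraries, and in none was the interval above 0. Sema3c was found in neuron-like nuclei, with 81.1 (52.5 to 119.7), 33.8 (20.6 to 52.1) and 18.3 (6.72 to 39.8) CPM, from 25, 20 and 6 UMIs, and in RGC/PSC-like nuclei, with 47.5, 31.4 and 41.9 CPM. In neuron-like nuclei both ratios, −1.26 (−2.19 to −0.36) and −2.15 (−3.72 to −0.83), were below 0. In glial progenitor-like nuclei the p300-ablated Sema3c ratio was above 0 instead, at 0.78 (0.07 to 1.55), from 58 UMIs against 23 in control. Sema7a was highest in oligodendrocyte-like nuclei, with 29.6 (19.2 to 43.7), 13.8 (9.93 to 18.8) and 30.3 (21.2 to 42.0) CPM, from only 25, 41 and 36 UMIs.

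The members past 1.5-fold were also counted within 4 classes, each beside the share of all genes with at least 100 UMIs there. Among NPC/OPC-like nuclei 6 members passed that minimum for the CBP-ablated and 8 for the p300-ablated library, and 0 were past 1.5-fold in either direction, against 3.77% of genes higher and 3.90% lower in the CBP-ablated and 2.25% and 2.49% in the p300-ablated library. Among committed precursor-like nuclei 7 passed, and Sema6a and Sema3e were higher and Sema3d lower in the CBP-ablated library, against 6.92% and 5.43% of genes. In the p300-ablated library 0 of 7 were past it there, against 3.24% and 2.82%. In oligodendrocyte-like nuclei 6 passed, and 0 in the CBP-ablated library were past it, against 8.08% and 4.52%. In the p300-ablated library only Sema3d was higher there, against 7.45% and 2.55%. Its level lay below its microglia-like CPM but above its CPM in RGC/PSC-like and glial progenitor-like nuclei. In cluster-5-like nuclei Sema6d was higher and Sema3d lower among 5 members in the CBP-ablated library, against 13.4% and 10.8%, and Sema5a was lower among 6 in the p300-ablated library, where 3.75% of genes were higher and 3.13% lower. The calls of Sema3e in committed precursor-like and of Sema6d in cluster-5-like nuclei are lost under the settings given above.

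**Figure D5:**
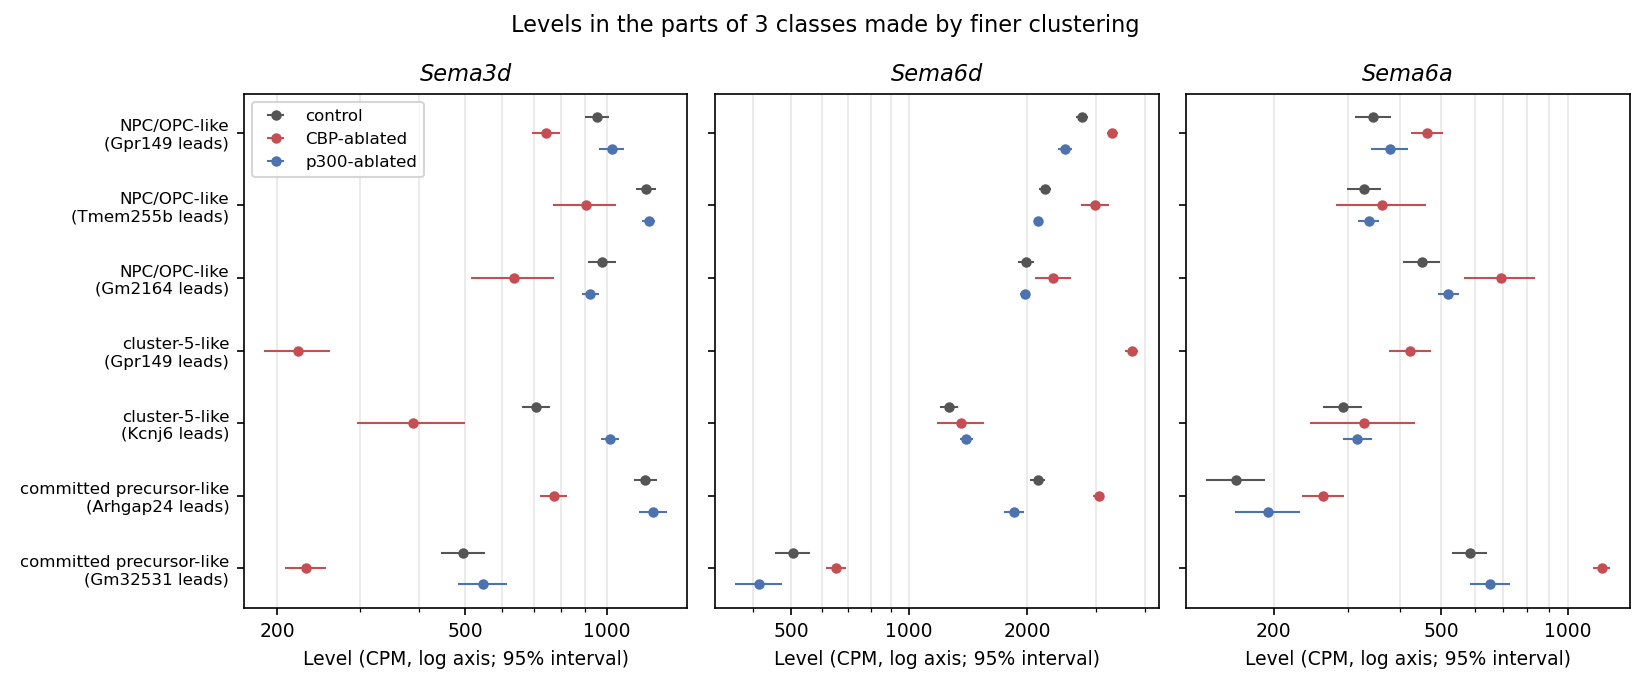
Levels of Sema3d, Sema6d and Sema6a (CPM, log axes that differ between panels) in the parts into which finer clustering split NPC/OPC-like, cluster-5-like and committed precursor-like nuclei, with 95% Poisson intervals, for parts with at least 20 nuclei of a library. Sema3d is lowest in the CBP-ablated library in each part that holds all 3 libraries, whereas Sema6d in the Kcnj6-led part stands at 1265, 1353 and 1399.7 CPM in control, CBP-ablated and p300-ablated.

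Of the 10 other semaphorin genes 6 had at least 100 UMIs in each comparison. In the CBP-ablated library Sema4c, Sema4f and Sema4g were more than 1.5-fold higher and Sema4b lower, and in the p300-ablated library Sema4f was higher and Sema4a and Sema4b lower. The shares of all genes, here and for the receptors and partners below, were 7.90% higher and 9.97% lower in the CBP-ablated library. They were 4.37% and 7.77% in the p300-ablated library. Except for Sema4b, the intervals of these ratios reached inside 1.5-fold. Sema4f had only 61, 80 and 117 UMIs. Sema4b, a transmembrane member, had 37.2 CPM in control, 12.9 with CBP ablated and 17.7 with p300 ablated, with log2 ratios of −1.53 (−1.79 to −1.28) and −1.07 (−1.27 to −0.88). Sema4c had 6.93, 12.9 and 7.52 CPM and Sema4g 15.4, 23.5 and 15.2.

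Of 11 receptors 10 had enough UMIs, and in each ablated library 1 was more than 1.5-fold higher and 1 lower. Nrp1, the neuropilin that binds Sema3a, was the lower one in both, with 132 (127 to 138) CPM in control, 49.2 (45.4 to 53.2) with CBP ablated and 79.2 (75.2 to 83.3) with p300 ablated. It had 237 (222 to 253) CPM in the astrocyte-like nuclei that control alone held, and in RGC/PSC-like nuclei its ratios were −0.68 (−0.91 to −0.44) and −0.24 (−0.42 to −0.06). Plxnb3, a plexin B receptor that Sema5a binds, was the higher one in the CBP-ablated library, with 48.4, 143 and 52.5 CPM. It followed the classes of Sema5a, with 245, 314 and 253 CPM in committed precursor-like and 233, 274 and 252 in oligodendrocyte-like nuclei. Plxna4, which binds Sema6a and joins neuropilin in the Sema3a receptor, was the higher one in the p300-ablated library, with 49.2, 48.9 and 75.1 CPM. It was highest in neuron-like nuclei, at 474, 473 and 598 CPM, and it overlaps 3 genes on the opposite strand. Its p300-ablated log2 ratio over all nuclei, 0.61 (0.48 to 0.74), had an interval that reached inside 1.5-fold.

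Of 14 co-receptors and signalling partners 13 had enough UMIs. In the CBP-ablated library 4 were more than 1.5-fold higher (Dpysl4, Dpysl5, Mical3 and L1cam) and 2 lower (Mical2 and Nrcam), and in the p300-ablated library L1cam was higher and Mical2 lower. Mical2 and Mical3, of a family of enzymes that oxidise actin, lay on opposite sides of control in the CBP-ablated library, with 92.9 and 29.7 CPM for Mical2 and 237 and 469.9 for Mical3. Dpysl5, a collapsin response mediator that relays semaphorin signals to the cytoskeleton, had 15.1, 32.7 and 18.3 CPM. Nrcam, an adhesion partner of neuropilin, had 701, 427 and 542 CPM. L1cam, a related adhesion protein, had 2.70, 4.94 and 4.40 CPM, from only 44, 63 and 83 UMIs, and it overlaps Arhgap4 on the same strand. The lists are small and were chosen with earlier results in view, so their counts are given beside the background shares above as a description.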

How the data were processed

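Nuclei of about 15 cultures per condition were pooled by the authors, sorted and captured in droplets. The authors made the count tables with Cell Ranger 3.1 on GRCm38 (mm10), counting reads in exons and introns, and deposited raw UMI counts per gene and nucleus without normalization. The submitters' processing notes also name FastQC 0.11.9 and Seurat 2.3.4. Groups follow the labels, with 1 library each.

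The semaphorins, the lists and the marker genes were chosen with earlier results of these data known. All 10 listed semaphorins are named. Other semaphorins, receptors and partners may be named where past 1.5-fold in either comparison, as may the 5 genes most like Sema3d.

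UMIs were summed per library and class. CPM carry 95% Poisson intervals, and log2 ratios and shares carry exact binomial ones, for counting error only. The ratios standardised to 1 makeup carry 95% intervals from a normal approximation, also for counting error only. At the median, a nucleus held 3219 UMIs in control, 4016 with CBP ablated and 3902.5 with p300 ablated. Classes came from Louvain clustering in Seurat 5.3.0 (R 4.3.3) at resolution 0.6, on 20 principal components of 1576 variable genes. A cluster was named where at least 60% and no fewer than 3 markers of a list were raised 2-fold in it. Names were rebuilt and may differ from the study's. The 191, 73 and 173 nuclei of highest Scrublet score (scanpy 1.11.5) were marked as doublets. Their number was set beforehand by an assumed rate of 0.8% per 1000 nuclei. They were left in, and removed in an alternative. The code (Python 3.11.15, numpy 2.4.6, scipy 1.17.1, pandas 2.3.3) was tested on simulated data. Gene spans are from GENCODE M21 for GRCm38, and sequences from RefSeq for GRCm38.p6. Alternatives covered scaling, depth, thinning, doublets, makeup, free RNA, count minimum, fold and clustering.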

Additional observations from a re-analysis of the deposited data

Results flagged for a closer look

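Over all nuclei, the ratios of 3 members lay on opposite sides of control in the ablated libraries, with counting intervals clear of 0 on both sides. The log2 ratio of the CBP-ablated to the p300-ablated library was −1.34 (−1.39 to −1.28) for Sema3d, which was chosen for this pattern. It was 0.94 (0.88 to 0.99) for Sema5a and −0.55 (−0.61 to −0.49) for Sema5b. The CBP-ablated side turned under other settings for the last 2 genes. Against control, Sema5a gave −0.19 at 1 makeup, and Sema5b gave 0.15 as the mean of nuclei, 0.17 after thinning and −0.02 (−0.09 to 0.05) at 1 makeup. These differences were not tested, since each library is 1 sample, and a class makeup that differs between the libraries moves with them.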

How the results depend on the processing

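No paired analysis was possible because each condition has 1 library, and for the same reason no replicate could be left out. Of 427 values under alternatives, 324 moved by less than their counting interval or, for counts, by less than 1.5 times. Another 93 moved by more, and 10 changed sign from a value whose interval excluded 0. Sign changes of values whose interval included 0 are not among these 10. With p300 ablated at 1 makeup, Sema3e went from 0.06 to −0.29 (−0.46 to −0.12) and Sema4d from −0.05 to 0.14 (0.03 to 0.24). Values here are log2 ratios to control. Over all nuclei, Sema3d with CBP ablated gave −0.61 as the mean of nuclei, −1.14 outside the astrocyte-like cluster, −0.66 after thinning to 1500 UMIs and −0.68 at 1 makeup, against −0.77. With p300 ablated these values were 0.63, 0.20, 0.63 and 0.17, against 0.57. In NPC/OPC-like nuclei, Sema3d with CBP ablated gave −0.77 at resolution 0.3, −0.86 at 1.2, −0.79 without the semaphorin, receptor and partner genes in clustering and −0.35 with 2000 variable genes by vst, against −0.50. With p300 ablated it gave 0.15 at resolution 0.3, 0.14 without those genes, −0.059 by vst and 0.12 as the mean of log values, against 0.04. The count of members past 1.5-fold with CBP ablated was 5, and it was 3 outside the astrocyte-like cluster, 2 at 1 makeup and 1 at 2-fold. The members counted can differ. At 1 makeup they were Sema3d, at −0.68, and Sema7a, at −0.72 (−1.22 to −0.21), which was not among the 5. With p300 ablated the count was 1, and it was 2 when centred on the median gene, as the mean of nuclei, outside the astrocyte-like cluster and after thinning, and 0 at 2-fold. With CBP ablated, the sign changes among the 10 were those of Sema6d when centred (−0.021) and of Sema5b as the mean of nuclei (0.15) and thinned (0.17). The others were those of Sema3e (−0.20), Sema4d (−0.045) and Sema5a (−0.19) at 1 makeup, and of Sema5a in NPC/OPC-like nuclei by vst (0.019). With p300 ablated, they were those of Sema6a outside the astrocyte-like cluster (−0.11) and at 1 makeup (−0.17), and of Sema7a at 1 makeup (−0.034). Within classes, Sema3e in committed precursor-like nuclei with CBP ablated went from 1.14 to 0.20 as a mean of log values, and Sema6d in cluster-5-like nuclei from 1.31 to 0.21 without the family genes in clustering. Sema3d in cluster-5-like nuclei ran from −1.67 to −0.84 with CBP ablated and from 0.13 to 0.89 with p300 ablated. Where makeup or classes were held fixed, the alternative itself sets the difference; otherwise the cause was not tested. Depth limits Sema7a, Sema3a and Sema3c most, at 100, 268 and 204 UMIs in control.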

Other observations

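The 2 clusters that no marker list named also held semaphorin UMIs. The first had 95 nuclei in control, 41 with CBP ablated and 118 with p300 ablated. Of these, 82, 32 and 76 were among the nuclei marked as doublets by Scrublet score at the assumed rate. Its Sema3d level was 444 (389 to 504) CPM in control, 357 (291 to 432) with CBP ablated and 475 (428 to 526) with p300 ablated. The second, of 95, 44 and 80 nuclei, had Sema3d at 309 (222 to 419.8), 199.6 (114 to 324) and 205 (137 to 294) CPM, with overlapping intervals. Sema6a there had 460.4 (352 to 591), 499 (356 to 680) and 537 (423 to 672) CPM.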
